A study of Homo sapiens with 8 samples.

Results

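The 44 myosin and actin organizing genes described here encode myosin heavy chains, kinases and phosphatase adaptors that set myosin activity, junction proteins, formins and other proteins that build or bundle actin filaments. They were taken by name from these families by a list drawn up with earlier results of these data known, so shares over the list are descriptions of it, and every listed peak lying whole within the GRCh38 span of one of them was assigned to it. They are 44 of 19974 protein-coding genes on chromosomes 1 to 22 and X. They held 74 of the 2616 peaks listed for LNCaP (2.83%) and 59 of the 1033 listed for PC3 (5.71%).

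The peaks come from RNA immunoprecipitation followed by sequencing with an antibody against METTL3 in LNCaP, an androgen-responsive prostate cancer line derived from a lymph node metastasis, and PC3, an androgen-independent line derived from a bone metastasis. There were 8 libraries in 4 groups, namely METTL3 immunoprecipitate (IP) and input of each line, with 2 replicates in each group. No genotype or drug treatment distinguished the groups, but LNCaP was grown in medium with 20% serum and PC3 in medium with 10% serum, so line and serum cannot be told apart. The labels do not say whether the replicates were separate cultures. The values were deposited as 1 peak list per line with no value per library, so the depth is unknown, the spread between replicates could not be measured and no difference between the lines was tested. No library from the IgG arm of the protocol was used here.

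METTL3 is the catalytic subunit of the enzyme that writes N6-methyladenosine on messenger RNA, where the mark affects splicing, stability and translation of the transcript. Nonmuscle myosin II assembles into bipolar filaments that slide actin filaments and so drive contraction, cell migration and cytokinesis. Its activity is raised when kinases such as ROCK phosphorylate the regulatory light chain and lowered by myosin phosphatase. RhoA acts above ROCK and above several formins, which nucleate and elongate unbranched actin filaments.

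Peaks were found on 24 of the 44 genes in at least 1 line. LNCaP had a peak on 20 genes (45.5%), where 5.62% of all protein-coding genes had one, and PC3 had a peak on 16 (36.4%), where the share over all protein-coding genes was 1.83%. A group of 12 genes had peaks in both lines (27.3%, against 1.16% of all protein-coding genes): MYH9, MYH10, MYO6, MYO18A, MYO9B, CIT, CDC42BPB, MPRIP, PPP1R9B, AFDN, DIAPH1 and SVIL. MYH14, MYO1D, MYO5C, CGN, CGNL1, LIMCH1, COBL and CTTN had peaks in LNCaP alone, and MYO1E, MYO5A, MYO10 and FHOD3 in PC3 alone. The remaining 20 genes had none in either list, namely MYO9A, MYO1C, MYO5B, MYO7A, MYO19, SHROOM3, ANLN, COBLL1, FMNL1, FMNL2, DIAPH3, FHOD1, INF2, DAAM1, CORO1C, SYNPO, PALLD, CDC42BPA, ROCK1 and ROCK2. A gene without a listed peak had no peak past the authors' limits, which gives no measure of its binding or of its RNA level.

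**Figure D1:**
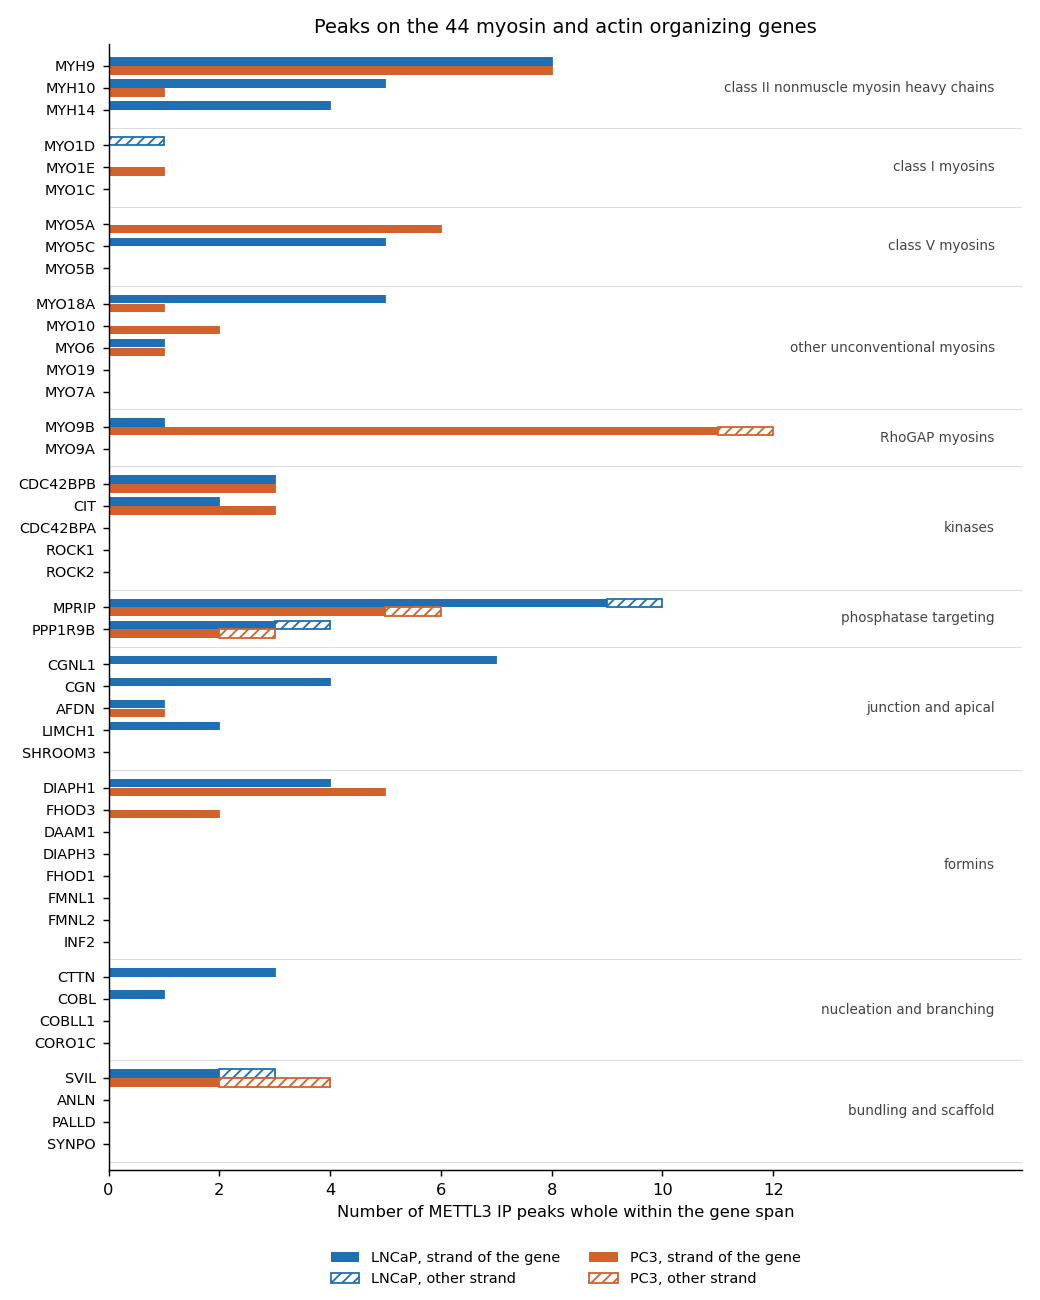
Number of METTL3 IP peaks (x axis) held whole by each of the 44 genes (y axis, grouped by role), with blue bars for LNCaP, orange bars for PC3 and hatching for peaks on the strand opposite to the gene. MYO9B has 12 peaks in PC3 and 1 in LNCaP, MYH9 has 8 in each line, and 20 genes have none.

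The lists differ in how weak a peak they admit. The largest p-value listed was 1.59e-05 for PC3 and 0.0178 for LNCaP. The weakest member peak of LNCaP, on MYO9B, had 0.0142. With the PC3 limit applied to LNCaP, 10 of the 44 genes kept a LNCaP peak (22.7%, against 1.33% of all protein-coding genes). These were MYH9, MYH10, MYO6, MYO18A, CDC42BPB, MPRIP, PPP1R9B, AFDN, CGNL1 and LIMCH1, with 20 peaks in all. At that limit 8 genes had peaks in both lines, and the share of all protein-coding genes with peaks in both lines was not computed there. Of the 8 genes with peaks in LNCaP alone 2, CGNL1 and LIMCH1, still had one. The other 6 of these 8 genes had no LNCaP peak that would have met the PC3 limit. The smallest p-value on the 8 genes with peaks in LNCaP alone was 1.41e-07, on LIMCH1, and on the genes with peaks in PC3 alone 5.98e-47, on MYO10. Over all peaks assigned to 1 gene the median p-value was 0.00136 in LNCaP and 6.48e-09 in PC3. Smaller p-values in PC3 are thus not particular to these genes.

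Long genes offer more room for a peak, and the members are long. Their median span was 160711 bp (16941 to 498346 bp), against 24170.5 bp over all protein-coding genes, and 34 of the 44 fell in the upper pair of span deciles. Beside the 200 protein-coding genes nearest in span to each member, the share with a peak was 10.5% in LNCaP, ranging over members from 3.5% to 19.5%, so 45.5% of the members is 4.32 times that share. In PC3 the like-length share was 3.19%, ranging from 1% to 6%, and 36.4% of the members is 11.4 times it. In the ninth decile 9 of 11 members had a LNCaP peak and 7 of 11 a PC3 peak, where 9.97% and 3.88% of other genes did. In the longest decile 8 of 23 members had a peak in each line, where other genes reached 14.2% and 3.65%. Of the 10 members in shorter deciles 3 had a LNCaP peak and 1, PPP1R9B, a PC3 peak. These members lie in deciles 5 to 8, where 4.76% to 6.82% of other genes had a LNCaP peak and 1.10% to 2.86% a PC3 peak. The median span was 141485 bp for the 12 genes with peaks in both lines, 140566 bp for the 8 with peaks in LNCaP alone, 257410 bp for the 4 with peaks in PC3 alone and 165294 bp for the 20 without a peak.

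**Figure D2:**
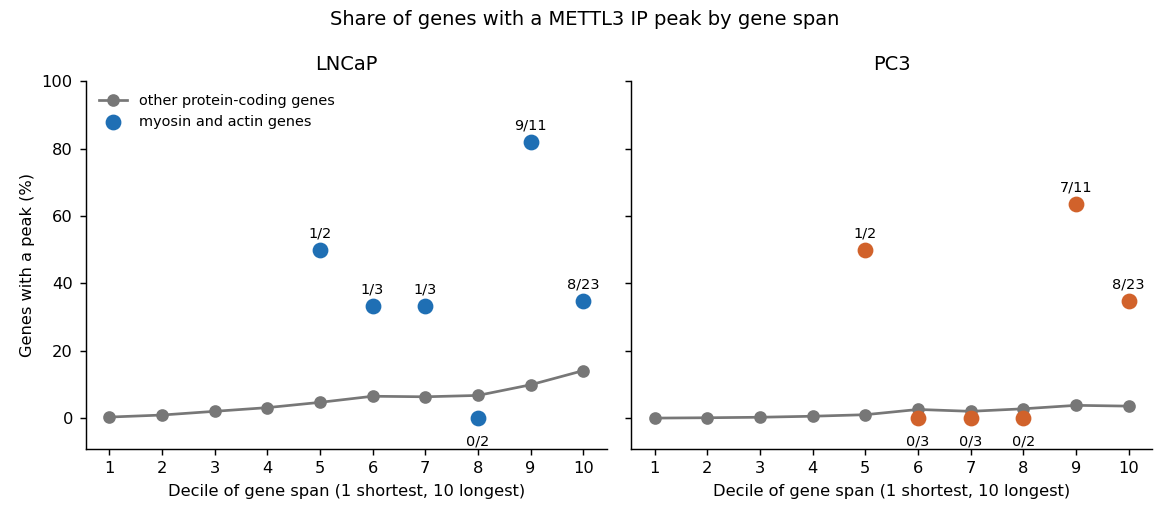
Share of genes with a METTL3 IP peak (y axis, percent) by decile of gene span (x axis, 1 shortest), for LNCaP on the left and PC3 on the right. Grey points joined by lines are other protein-coding genes, coloured points are the members, and each label gives members with a peak over members in that decile, for instance 9/11 for LNCaP and 7/11 for PC3 in the ninth.

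The number of peaks per gene was set beside that of other genes with a peak. LNCaP had 3.7 peaks per member with a peak (median 3.5), against 2.30 (median 1) over all genes to which a peak could be assigned alone, and 10 of the 20 (50%) had at least 4, against 15.4%. PC3 had 3.69 per member (median 3), against 2.80 (median 2), and 6 of the 16 (37.5%) had at least 4, against 23.5%. In the ninth and the longest span decile, where most members lie, other genes with a peak had means of 2.35 and 2.08 in LNCaP and 2.95 and 3.04 in PC3. MYO9B gave 12 of the 59 PC3 peaks, and the other 15 members had 3.13 each on average, close to the PC3 value of those long genes. Some of these are pieces of a longer stretch. In each list 9 neighbouring pairs of member peaks were separated by exactly 25 bp, and joining them left 65 stretches in LNCaP and 50 in PC3. Member peaks were also longer, with medians of 1973 bp for LNCaP (920.5 bp over all assigned peaks) and 2778 bp for PC3 (908 bp). All assigned peaks include those on much shorter genes, and peak length was not compared with genes of like length. Lengths ran from 51 to 58549 bp in LNCaP and from 51 to 72185 bp in PC3. Exon boundaries were not used here, so which part of a long peak is exon or intron is not given.

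All 3 heavy chains of nonmuscle myosin II had LNCaP peaks and 2 of them had PC3 peaks. This and the role groups below are small. Their counts stand beside 5.62% of all protein-coding genes in LNCaP, 1.83% in PC3 and 1.16% in both lines. MYH9, the heavy chain of myosin IIA (chr22:36281280-36387967, minus strand), had 8 peaks in each line, all on the strand of the gene. Its leading peak was the second smallest p-value of either list. In LNCaP it spanned chr22:36285258-36305066 (19809 bp) with a fold of 11.4, a p-value of 1.37e-32 and a false discovery rate (FDR) of 1.79e-29. In PC3 it spanned chr22:36282530-36305066 (22537 bp) with a fold of 10.1, a p-value of 1.29e-94 and an FDR of 6.67e-92. The fold is the authors' enrichment value for a peak, made separately in each list, and what it is relative to is not given in the sources used here. The other 7 folds of MYH9 ran from 3.60 to 10.2 in LNCaP and from 4.41 to 9.54 in PC3. Next in extent came a block at chr22:36326593-36341448 in LNCaP (fold 4.94) and chr22:36326618-36341448 in PC3 (fold 4.59). Peaks covered 36.6% of the gene span in LNCaP and 41.3% in PC3, and 99.7% of the bases covered in LNCaP were also covered in PC3, as were 88.5% of the PC3 bases in LNCaP. The MYH9 intervals of the lists thus nearly coincided.

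The leading MYH9 peak of both lists holds a microRNA gene, MIR6819, whose hairpin lies at chr22:36286847-36286907 on the minus strand, the strand of MYH9. The mature sequences are printed because they locate annotated small RNA sequence inside the most significant member peak; the libraries do not separate its reads from those of MYH9. They are from RefSeq (GRCh38.p14), 5′ to 3′, with the seed, bases 2 to 8, in capitals.
hsa-miR-6819-5p: uUGGGGUGgagggccaaggagc
hsa-miR-6819-3p: aAGCCUCUguccccaccccag

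MYH10, the heavy chain of myosin IIB (chr17:8474212-8630725, minus strand), had 5 peaks in LNCaP and 1 in PC3. The LNCaP peaks followed one another from chr17:8476906 to 8518711 with folds of 9.49, 9.82, 5.25, 5.08 and 7.47, p-values from 2.94e-11 to 0.00092 and FDRs from 1.57e-09 to 0.00213. They covered 26.6% of the gene span. The PC3 peak, chr17:8504894-8513850, had a fold of 8.05, a p-value of 2.73e-17 and an FDR of 1.65e-16, and lay whole inside the last of the LNCaP peaks, chr17:8504819-8518711. Its bounds lie 10 bp and 16 bp outside those of LOC102724262, a long noncoding RNA annotated on the plus strand at chr17:8504904-8513834. The peak is listed on the minus strand, that of MYH10. A further peak on the plus strand crossed the end of MYH10 in both lists, from chr17:8468073 within the neighbouring NDEL1 into MYH10, with folds of 10.1 in LNCaP and 6.03 in PC3, and was not counted because it does not lie whole within MYH10. It also covers LOC107987245, a long noncoding RNA on the plus strand.

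The 300 bases below are the stretch of the shared MYH10 peak for which a reference sequence was given, chr17:8506239-8506538 on the minus strand. They are the reverse complement of a RefSeq window (GRCh38.p14) at a start listed for LOC102724262 inside its span, not at its outer bound, and are shown because they lie whole within a peak of both lists. GGAC, the core of the motif at which the METTL3 complex methylates adenosine, is in capitals and occurs once. Of all 35116 RefSeq windows of 300 bases that surround a transcription start, 66.3% hold GGAC on the given strand and 87.4% on either strand, so a match is common. The longer form GGACT, which contains GGAC, does not occur in it and occurs in 25.3% of those windows.
MYH10 peak: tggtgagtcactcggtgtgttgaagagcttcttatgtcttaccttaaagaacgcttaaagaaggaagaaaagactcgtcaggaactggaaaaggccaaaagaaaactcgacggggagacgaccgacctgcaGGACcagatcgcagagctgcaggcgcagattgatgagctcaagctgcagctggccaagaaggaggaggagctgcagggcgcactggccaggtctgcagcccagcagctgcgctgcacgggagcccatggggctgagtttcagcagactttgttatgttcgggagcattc

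MYH14, the heavy chain of myosin IIC (chr19:50203622-50310540, plus strand), had 4 peaks in LNCaP and none in PC3. They were chr19:50266913-50271883 (fold 8.45), chr19:50290952-50291002 (4.28), chr19:50292264-50292314 (5.57) and chr19:50293282-50301672 (10.8), all on the plus strand. Their p-values ran from 2.63e-05 to 0.00503 and their FDRs from 0.000157 to 0.00638, so none reached the largest p-value of the PC3 list.

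The class I and class V myosins, which tether membrane to actin and carry vesicles along it, gave no gene with peaks in both lines. MYO1E had 1 PC3 peak, chr15:59173756-59174216 on the minus strand of the gene, with a fold of 4.31, a p-value of 9.52e-08 and an FDR of 1.46e-07. MYO1D had 1 LNCaP peak, chr17:32627788-32686336, with a fold of 4.82, a p-value of 0.000174 and an FDR of 0.000667. That peak is 58549 bp long and lies on the plus strand, opposite to MYO1D, so MYO1D had no peak on its own strand. MYO5A had 6 PC3 peaks between chr15:52353627 and 52370286, with folds of 6.26, 8.54, 5.01, 5.01, 4.81 and 6.78, p-values from 9.8e-08 to 7.59e-06 and FDRs from 1.5e-07 to 7.7e-06. MYO5C, which lies near MYO5A on chromosome 15, had 5 LNCaP peaks between chr15:52219809 and 52239876, with folds of 4.52, 3.32, 4.64, 5.06 and 3.74. The MYO5C p-values, 0.00294 to 0.0122, all exceeded the PC3 limit, and the FDRs ran from 0.0045 to 0.0126. MYO1C and MYO5B had no peak.

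Of the other unconventional myosins, MYO6, the motor that walks toward the pointed end of actin filaments, had 1 peak per line with folds close to each other. Its LNCaP peak, chr6:75886058-75892604, had a fold of 4.15, a p-value of 2.33e-09 and an FDR of 5.92e-08. Its PC3 peak, chr6:75886932-75892579, had a fold of 4.51, a p-value of 1.58e-11 and an FDR of 4.83e-11, and lay whole inside the LNCaP peak on the plus strand of the gene. MYO18A, a myosin that co-assembles with myosin II filaments, had 5 peaks in LNCaP with folds of 3.46, 9.001, 9.30, 12.9 and 3.69 from chr17:29082432 to 29107142, p-values from 1.28e-07 to 0.0117 and FDRs from 1.94e-06 to 0.0121. In PC3 it had a single peak of 101 bp, chr17:29086944-29087044, with a fold of 10.2, a p-value of 3.52e-07 and an FDR of 4.73e-07. MYO10, which carries cargo to filopodial tips, had 2 peaks in PC3 on the minus strand and none in LNCaP. The first, chr5:16701464-16711153, had a fold of 13.1, a p-value of 5.98e-47 and an FDR of 2.38e-45, ranked 26 of 1033 by p-value. The other, chr5:16779624-16780574, had a fold of 13.4, a p-value of 5.5e-07 and an FDR of 7.06e-07. MYO7A and MYO19 had no peak.

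MYO9B, a myosin whose tail carries a GTPase-activating domain, differed most between the lists in its number of peaks. PC3 had 12 peaks on it and LNCaP 1. The LNCaP peak, chr19:17200670-17200745 (76 bp), had a fold of 3.002, a p-value of 0.0142 and an FDR of 0.0143, and ranked 2592 of 2616. The 11 PC3 peaks on the plus strand of the gene had, from the 5′ end, folds of 8.40, 10.2, 25.4, 31.01, 13.8, 16.4, 20.0, 7.60, 9.41, 7.37 and 15.0. Their p-values ran from 2.65e-36 to 8.17e-06 and their FDRs from 6.37e-35 to 8.26e-06. The 25.4-fold and 31.01-fold peaks adjoined at chr19:17172767-17175716, and the smallest p-value belonged to chr19:17191112-17195331. Peaks on the gene's strand covered 53.5% of the MYO9B span in PC3 and 0.0553% in LNCaP. Most of the PC3 coverage came from 1 long peak, chr19:17102536-17154335 (51800 bp, fold 8.40). The remaining PC3 peak, chr19:17152687-17157369, lay on the minus strand with a fold of 12.3. Where the lines overlapped, the fold was 9.41 in PC3 and 3.002 in LNCaP, the widest ratio of any overlapping member pair (3.13). MYO9A, the related gene, had no peak in either line.

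Of 5 kinases that act on myosin or its light chain, CIT and CDC42BPB had peaks in both lines, and ROCK1, ROCK2 and CDC42BPA had none. CIT, citron kinase, which acts in cytokinesis, had 2 LNCaP peaks on the minus strand of the gene, chr12:119761033-119767089 (fold 8.02, p-value 0.000375, FDR 0.00115) and chr12:119776781-119782606 (fold 3.94, p-value 0.00987, FDR 0.0106). Both lay inside 1 PC3 peak of 50699 bp, chr12:119734336-119785034, with a fold of 7.91, a p-value of 3.07e-32 and an FDR of 5.87e-31. The other PC3 peaks of CIT were chr12:119720490-119721363 (fold 7.82, p-value 1.15e-08, FDR 2.16e-08) and chr12:119728515-119734286 (fold 7.38, p-value 8.86e-14, FDR 3.59e-13). CDC42BPB, which phosphorylates myosin light chain downstream of CDC42, had 3 peaks in each line on the minus strand. In LNCaP their folds were 5.82, 11.5 and 4.10 with p-values from 6.39e-11 to 0.0073, and the 11.5-fold peak was only 76 bp long, chr14:102980943-102981018, with an FDR of 3.09e-09. In PC3 the folds were 7.54, 7.94 and 6.39 with p-values from 8.53e-19 to 2.13e-08, and the 6.39-fold peak, chr14:102980868-102981018, contained the short LNCaP peak. The LNCaP fold was the higher at this short site and the PC3 fold at the adjacent one.

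Both adaptors that direct phosphatases to actin had peaks in both lines, and each also had a peak on the opposite strand with the same start and end in both lists. MPRIP, which links myosin phosphatase to actin and RhoA (chr17:17042457-17192643, plus strand), had 10 LNCaP and 6 PC3 peaks. The 9 LNCaP peaks on its own strand lay between chr17:17131666 and 17172798 with folds of 5.04, 7.64, 4.81, 4.70, 8.62, 13.5, 12.9, 5.91 and 4.42, p-values from 2.62e-06 to 0.00542 and FDRs from 2.46e-05 to 0.00676. The 5 PC3 peaks on its own strand lay between chr17:17078028 and 17179560 with folds of 6.06, 6.60, 8.75, 10.2 and 6.64, p-values from 3.4e-33 to 2.74e-06 and FDRs from 6.89e-32 to 2.99e-06. Peaks on its own strand covered 62.7% of the gene span in PC3 and 10.9% in LNCaP. Most of the PC3 coverage came from 1 long peak, chr17:17078028-17150212 (72185 bp, fold 6.06). The opposite-strand peak, chr17:17169020-17185548, was the third smallest p-value of the PC3 list, at 3.53e-82, at a fold of 18.1 and an FDR of 1.22e-79. That interval in LNCaP had a fold of 7.10, a p-value of 0.000323 and an FDR of 0.00104, and ranked 813. Of the other genes in the reference table only 2 pseudogenes, RNU6-767P and RN7SL775P, whose strand was not in the table, overlap it.

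PPP1R9B, spinophilin, which holds protein phosphatase at actin filaments (chr17:50133737-50150677, minus strand), is the shortest of the 44 genes. Its own-strand peaks in LNCaP were chr17:50136045-50139285 (fold 4.74, p-value 0.000311, FDR 0.00102), chr17:50139522-50140208 (fold 4.50, p-value 4.61e-05, FDR 0.000235) and chr17:50145241-50149688 (fold 11.6, p-value 2.19e-06, FDR 2.19e-05). Those in PC3 were chr17:50135552-50145141 (fold 4.33, p-value 1.33e-24, FDR 1.5e-23) and chr17:50149163-50149563 (fold 4.72, p-value 6.22e-11, FDR 1.74e-10). The opposite-strand peak, chr17:50135585-50145214, had a fold of 4.57, a p-value of 9.02e-06 and an FDR of 6.78e-05 in LNCaP and a fold of 4.33, a p-value of 1.39e-24 and an FDR of 1.57e-23 in PC3. In PC3 the peaks on the opposing strands thus shared almost the same bounds, fold and p-value. The own-strand peak nearest the start of the gene lay in the first part of the span, unlike most member peaks, with midpoints at 19.0% of the span in LNCaP and 7.76% in PC3.

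**Figure D3:**
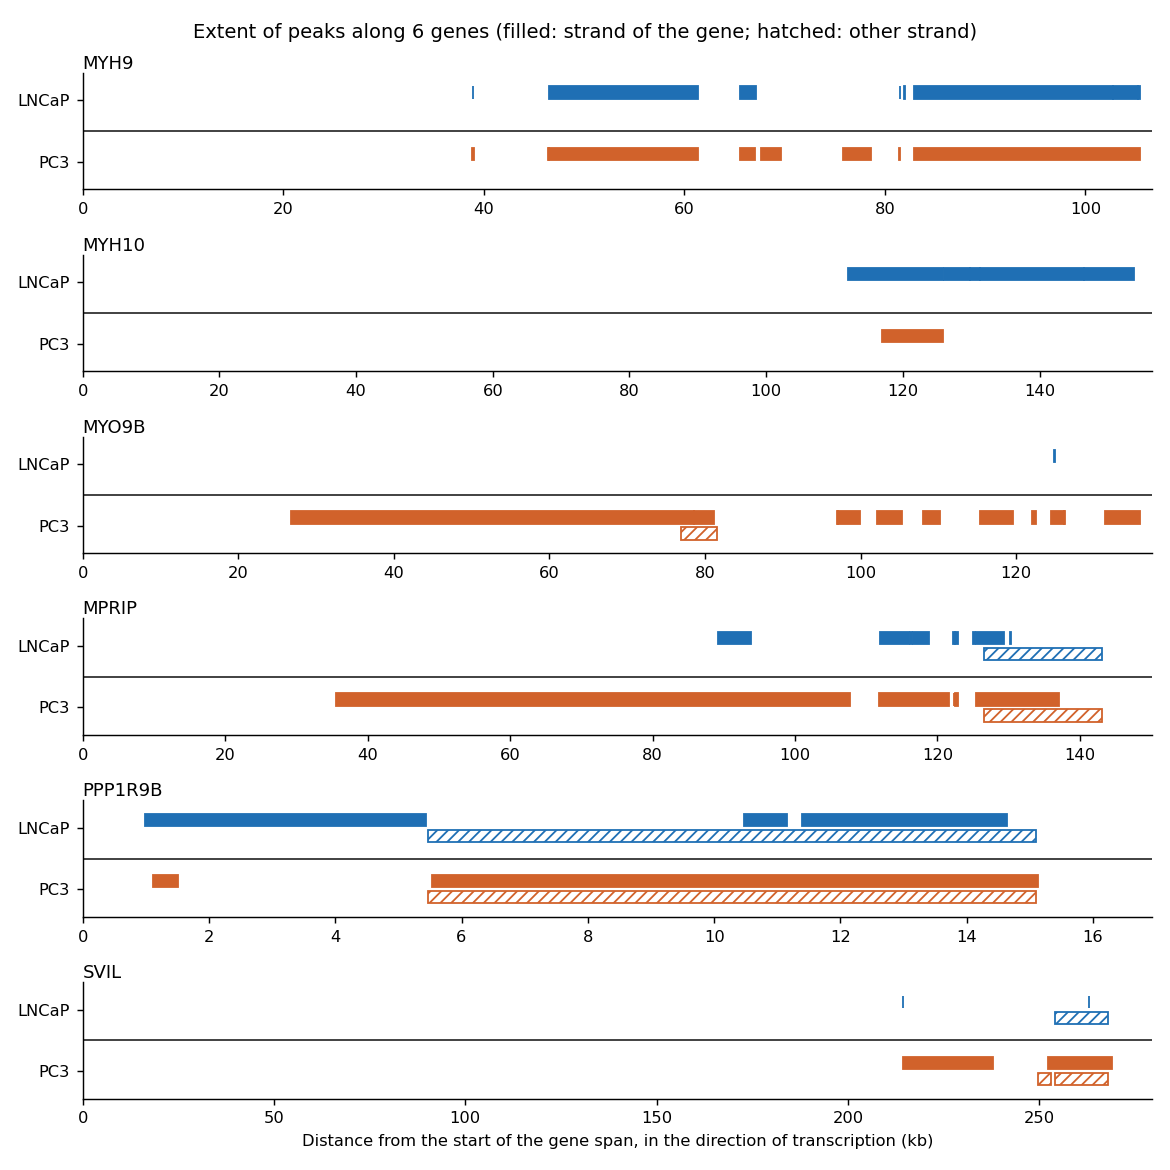
Extent of the listed peaks along MYH9, MYH10, MYO9B, MPRIP, PPP1R9B and SVIL, with distance from the start of the gene span in the direction of transcription on the x axis (kb), LNCaP in blue and PC3 in orange. Filled blocks lie on the strand of the gene and hatched blocks on the other strand. The MYH9 blocks nearly coincide between lines. MYO9B is covered over 53.5% of its span in PC3, mostly by 1 block of 51800 bp, and carries a single block of 76 bp in LNCaP.

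Of the genes of cell junctions and the apical actin belt, 4 of 5 had LNCaP peaks and 1 had a PC3 peak, beside 5.62% and 1.83% of all protein-coding genes. The lists admit peaks of unlike strength. With the PC3 limit applied to LNCaP, AFDN, CGNL1 and LIMCH1 kept a LNCaP peak and CGN did not. AFDN, afadin, which joins nectin adhesions to actin, had 1 peak per line on its plus strand. It was chr6:167951794-167962578 in LNCaP (fold 8.58, p-value 4.45e-07, FDR 5.46e-06) and chr6:167951844-167962603 in PC3 (fold 7.41, p-value 7.3e-14, FDR 2.99e-13). The intervals shared 99.5% of the LNCaP and 99.8% of the PC3 bases. CGNL1, paracingulin, a protein of epithelial junctions, had 7 LNCaP peaks between chr15:57451518 and 57546188 with folds of 4.99, 4.89, 5.87, 6.06, 12.7, 6.37 and 6.15. Their p-values ran from 1.86e-07 to 0.00462 and their FDRs from 2.67e-06 to 0.00604. CGN, cingulin, of the tight junction, had 4 between chr1:151519349 and 151535635 with folds of 11.97, 7.17, 11.1 and 10.5, p-values from 6.67e-05 to 0.000445 and FDRs from 0.000314 to 0.0013. LIMCH1, an activator of nonmuscle myosin II, had 2, chr4:41638953-41646156 (fold 3.31, p-value 3.22e-07, FDR 4.19e-06) and chr4:41646206-41646585 (fold 3.62, p-value 1.41e-07, FDR 2.11e-06). CGN combined high folds with moderate p-values and LIMCH1 low folds with small ones. SHROOM3 had no peak.

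Among 8 formins, DIAPH1 had peaks in both lines and FHOD3 in PC3, while FMNL1, FMNL2, DIAPH3, FHOD1, INF2 and DAAM1 had none. DIAPH1, an effector of RhoA (chr5:141515021-141619000, minus strand), had 4 LNCaP peaks with folds of 5.32, 3.61, 4.12 and 3.88, p-values from 3.51e-05 to 0.00189 and FDRs from 0.000191 to 0.00337. Its 5 PC3 peaks had folds of 6.71, 6.43, 6.46, 5.08 and 6.34, p-values from 9.03e-22 to 1.41e-07 and FDRs from 8.11e-21 to 2.07e-07. All lay on the minus strand. The peak chr5:141587064-141587321 had the same start and end in both lists. Its fold was 3.88 in LNCaP and 6.34 in PC3. FHOD3, a formin known from the sarcomere, had 2 PC3 peaks on its plus strand, chr18:36625618-36625668 (fold 8.11, p-value 2.61e-06, FDR 2.86e-06) and chr18:36681515-36693227 (fold 4.93, p-value 8.37e-08, FDR 1.3e-07).

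A further minus-strand peak at the start of DIAPH1, chr5:141618881-141619055, had the same bounds in both lists but reached 55 bp beyond the annotated start, so it was not counted among the member peaks. Its fold was 4.35 in LNCaP (p-value 8.17e-05, FDR 0.00037) and 8.48 in PC3 (p-value 2.07e-09, FDR 4.52e-09). A plus-strand peak, chr5:141618413-141625945, also crossed that border in both lists, with folds of 3.58 and 4.40, and reached into HDAC3. The sequence is printed because a peak of both lists covers the start of a member. It gives chr5:141618971-141619250 on the minus strand, from RefSeq (GRCh38.p14), with the 85 bases that lie within the minus-strand peak in capitals. G and C make up 73.2% of the 280 bases, and GGAC, which 63.3% of RefSeq windows of the same 280 positions hold on the given strand, does not occur in these letters.
DIAPH1 start: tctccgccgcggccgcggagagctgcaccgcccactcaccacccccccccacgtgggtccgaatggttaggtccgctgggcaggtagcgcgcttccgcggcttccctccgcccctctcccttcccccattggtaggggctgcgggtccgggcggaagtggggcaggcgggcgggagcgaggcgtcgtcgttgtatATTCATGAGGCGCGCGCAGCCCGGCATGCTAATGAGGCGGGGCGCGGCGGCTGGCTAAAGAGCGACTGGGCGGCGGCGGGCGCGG

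Of the remaining actin genes, CTTN, cortactin, which stabilizes branched actin, had 3 LNCaP peaks between chr11:70409861 and 70419844 with folds of 4.04, 4.77 and 3.996, p-values from 5.18e-05 to 0.00158 and FDRs from 0.000258 to 0.00301. COBL, an actin nucleator, had 1 LNCaP peak of 76 bp, chr7:51085206-51085281, with a fold of 6.07, a p-value of 0.000907 and an FDR of 0.00212. The strand of these 2 genes was not in the promoter table, and the strand of their peaks was taken as theirs. COBLL1 and CORO1C had no peak. SVIL, supervillin, which binds actin and myosin II at the membrane (chr10:29457338-29736936, minus strand), was the only one of 4 bundling and scaffold genes with a peak, as ANLN, SYNPO and PALLD had none. In LNCaP it had own-strand peaks of 101 and 76 bp, chr10:29473887-29473987 (fold 3.86, p-value 0.00414, FDR 0.00563) and chr10:29522421-29522496 (fold 6.48, p-value 0.0015, FDR 0.00292). In PC3 each lay inside a longer peak, chr10:29467839-29484656 (fold 11.3, p-value 6.78e-19, FDR 4.88e-18) and chr10:29499125-29522571 (fold 7.15, p-value 1.17e-11, FDR 3.65e-11). On the opposite strand the peak chr10:29469029-29482914 had the same bounds in both lists. Its fold was 5.68 with a p-value of 0.0046 and an FDR of 0.00603 in LNCaP, and 11.4 with a p-value of 9.76e-19 and an FDR of 6.81e-18 in PC3. PC3 had another opposite-strand peak, chr10:29483839-29487250 (fold 8.03, p-value 8.8e-06, FDR 8.87e-06). Both lie within SVIL-AS1, a long noncoding RNA annotated on the plus strand at chr10:29409534-29487856.

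Peaks on the opposite strand were therefore found on MPRIP, PPP1R9B and SVIL in both lines, on MYO1D in LNCaP and on MYO9B in PC3. They were 4 of 74 LNCaP peaks (5.41%, against 2.38% of all assigned peaks) and 5 of 59 PC3 peaks (8.47%, against 2.71%). The 95% Wilson interval of the LNCaP members, 2.12% to 13.1%, covers the 2.38%. That of the PC3 members, 3.67% to 18.4%, lies above the 2.71%. Both intervals treat peaks of 1 gene as separate. Counted by gene, 4 of the 20 members with a LNCaP peak had an opposite-strand peak (20%). Of all genes with a peak and an assigned strand 5.99% did. In PC3 4 of 16 had one (25%), against 7.12%. The reference gave a strand for 15812 of the 19974 protein-coding genes, and other genes took the strand of most of their peaks. That rule can lower the shares over all genes and peaks. Members with a peak also had more peaks each (3.7 against 2.30 in LNCaP, 3.69 against 2.80 in PC3). Strand was not compared with genes of like length. A peak on the gene's own strand overlapped 3 of the 4 in LNCaP, MYO1D being the exception, and all 5 in PC3. Of the 5 opposite-strand PC3 peaks 3 recurred in LNCaP with the same start and end, as did 1 of the 54 on the gene's strand, the 258 bp peak of DIAPH1. Over all PC3 peaks assigned to 1 gene, the same bounds recurred for 9 of 27 opposite-strand peaks (33.3%) and 27 of 971 own-strand peaks (2.78%). The libraries were stranded per the labels, but whether the counting used strand is not given in the sources used here. Of these peaks only those of SVIL lay over a gene known from the reference tables to be on the opposite strand, and no cause of the others was tested.

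Most member peaks lay toward the 3′ end of the gene. With each span divided into 3 equal parts in the direction of transcription, 2, 24 and 48 of the 74 LNCaP peaks had their midpoint in the first, middle and last part. The last part thus held 64.9% (95% Wilson interval 53.5% to 74.8%), against 46.7% over all assigned peaks, and the first held 2.70%, against 19.3%. In PC3 the counts were 2, 17 and 40 of 59. The last part held 67.8% (55.1% to 78.3%), against 57.8% over all assigned peaks, and the first held 3.39%, against 13.3%. The intervals cover counting error only and treat peaks of 1 gene as separate. All assigned peaks include those on genes of every span, most of them shorter than the members. Position was not compared with genes of like length. The 4 peaks in the first part were the PPP1R9B peaks near its start and the shared 258 bp peak of DIAPH1, 1 of each per line. Among members with 2 or more peaks in a line, CTTN in LNCaP, with 3 peaks between 36.0% and 50.6% of the span, had none in the last part, and neither had CIT in LNCaP or PPP1R9B in PC3.

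**Figure D4:**
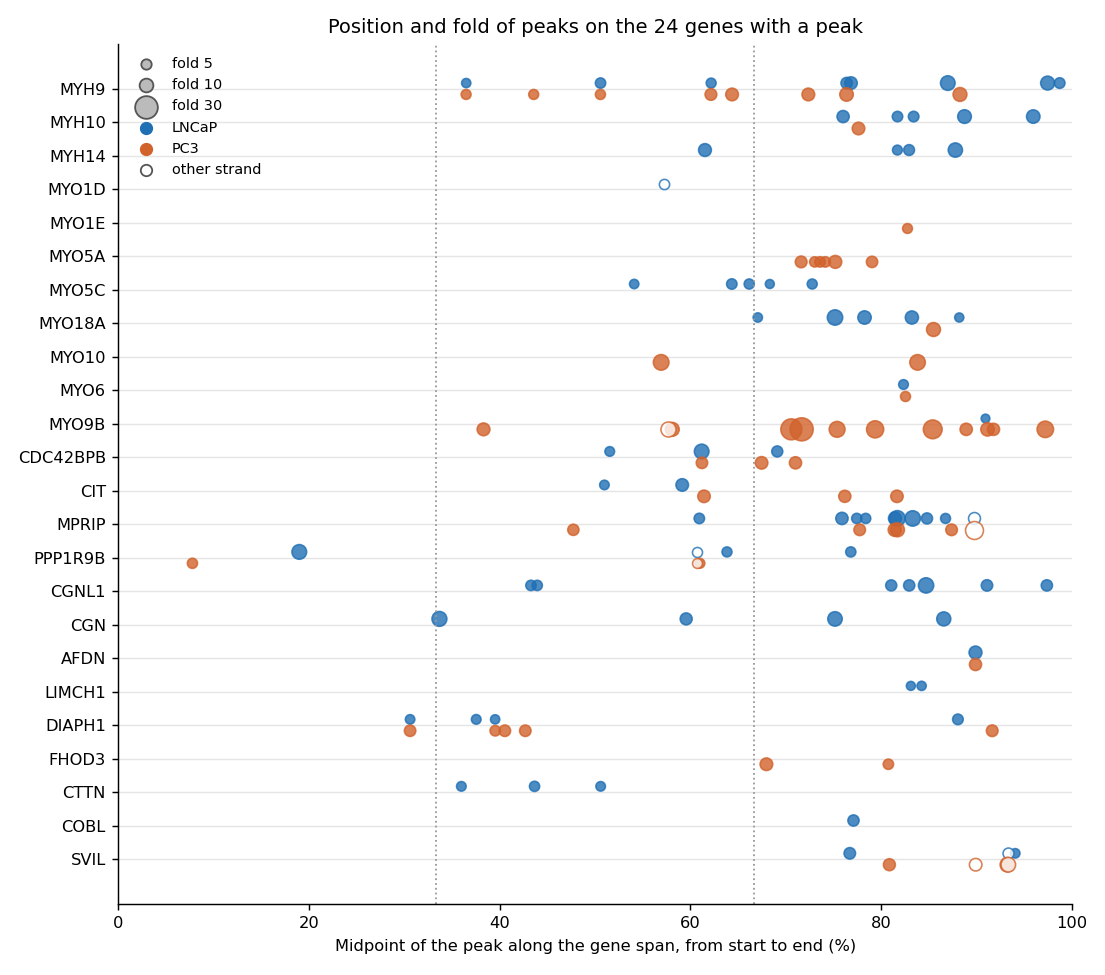
Midpoint of every peak along the gene span in the direction of transcription (x axis, percent) for the 24 genes with a peak (y axis), LNCaP in blue and PC3 in orange, with point area rising with the fold and open points on the strand opposite to the gene. Dotted lines mark the borders of the 3 equal parts, and 48 of 74 LNCaP and 40 of 59 PC3 points lie to the right of the second line.

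The folds of member peaks had a median of 5.32 in LNCaP (95% interval from order statistics 4.82 to 6.15, range 3.002 to 13.5), beside 5.27 over all assigned peaks of that list. In PC3 the median was 7.60 (6.71 to 8.30, range 4.31 to 31.01), beside 5.80. At least 10-fold were 12 of 74 LNCaP peaks (16.2%, against 12.7%) and 16 of 59 PC3 peaks (27.1%, against 14.4%). With all peaks counted, the LNCaP median of the members was thus near that of its list and the PC3 median above it. The intervals treat peaks of 1 gene as separate. With 1 peak per gene, that of smallest p-value, the LNCaP median of the members was 7.32, and at the PC3 limit it was 9.39. Both lie above its interval, and no value over all assigned peaks is given for these settings. MYO9B alone gave 8 of the 16 PC3 peaks of at least 10-fold, and the median of the other 47 PC3 member peaks was 6.82. Among the 100 smallest p-values of each list, 4 LNCaP peaks lay on MYH9, MYH10 and CDC42BPB, and 10 PC3 peaks lay on MYH9, MPRIP, MYO10, MYO9B, CIT and PPP1R9B.

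Of the 59 PC3 member peaks 29 overlapped a LNCaP peak on the same strand by at least 1 bp (49.2%, against 44.4% of all PC3 peaks). Seen from the other list, 35 of the 74 LNCaP member peaks overlapped a PC3 peak (47.3%, against 21.3% of all LNCaP peaks). With at least 50% of both peaks shared, the counts were 15 of 59 (25.4%, against 21.6%) and 15 of 74 (20.3%, against 8.52%). The 29 PC3 peaks lay on all 12 genes with peaks in both lines. Set beside the LNCaP peak of greatest overlap, the PC3 fold was higher in 19 and the LNCaP fold in 10, with a median ratio of 1.23, and 20 pairs were within 1.5 times of each other. The folds of the lists were made separately, so their ratio was not tested. The largest excess in LNCaP was at PPP1R9B, where a 11.6-fold peak overlapped a 4.72-fold peak of PC3, followed by the short CDC42BPB peak.

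**Figure D5:**
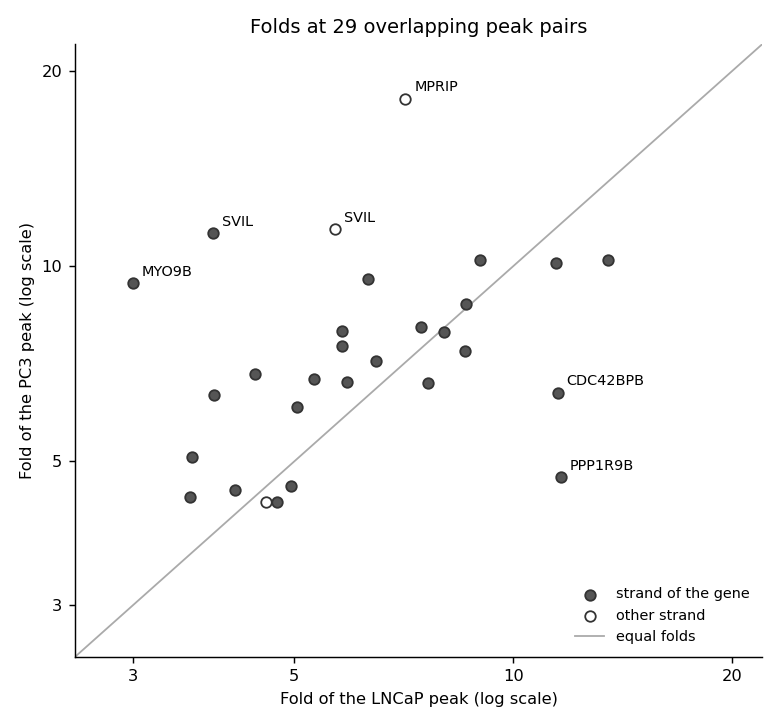
Fold of the PC3 peak (y axis, log scale) against the fold of the overlapping LNCaP peak (x axis, log scale) for 29 pairs on 12 genes, with open points for the strand opposite to the gene and a grey line for equal folds. The MPRIP, SVIL and MYO9B points lie farthest above the line and the PPP1R9B and CDC42BPB points farthest below it.

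Genes of the same pathway outside the 44 were looked up in 5 further lists of 79 genes, of which 10 had a LNCaP peak (12.7%) and 9 a PC3 peak (11.4%), beside 5.62% and 1.83% of all protein-coding genes. None of 22 other myosin heavy chain genes, among them those of skeletal and cardiac muscle, had a peak in either line. Of 10 light chain genes and their regulators PPP1R12A, the targeting subunit of myosin phosphatase, had a LNCaP peak (fold 5.09) and MYLK, the myosin light chain kinase, a PC3 peak (fold 9.03). Among actins and crosslinkers FLNA, a filamin that crosslinks actin into networks, had 15 peaks in LNCaP and 16 in PC3. The actinins ACTN1 and ACTN4 and FLNC had PC3 peaks, and ACTN4, CALD1, ACTG1 and TPM4 LNCaP peaks. Of 18 genes of actin assembly LIMK1 and EVL had a LNCaP peak and none had a PC3 peak. Of 15 regulators of small GTPases TRIO had peaks in both lines, and ARHGAP21 and ARHGAP35 in PC3. As peak lists hold no expression levels, the lines could not be checked against their markers by level. FOLH1 and TMPRSS2, markers of LNCaP, had a LNCaP peak and no PC3 peak, and none of 5 PC3 markers had a peak in either list. Whether a member without a peak was expressed in a line was not tested.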

How the data were processed

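RNA immunoprecipitation with an anti-METTL3 antibody and matched input was sequenced in LNCaP and PC3. The submitters' processing notes name fastp, STAR 2.5.3a, bedtools, deepTools and hg38 without roles; the peak caller, its limits and the handling of replicates are not given in the sources used here. The authors deposited 1 peak list per line, with a fold enrichment (a ratio), p-value, FDR and score for each peak, per the file headers. From the values, the FDR is the Benjamini-Hochberg adjustment of the listed p-values and the score its negative log2. Only listed peaks entered that adjustment, so the FDR takes no account of any regions that were tested but not listed. Replicates were not separable and no new test was run, so every comparison is a description.

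Peaks lying whole within a gene's span in RefSeq (GRCh38.p14) were assigned to it, with shares over all protein-coding genes and over the 200 nearest in span as background. Counts over all genes take a peak within overlapping genes for each. The strand of 41 members came from the RefSeq promoter table, and for CTTN and COBL from their peaks. Other genes without a strand in that table took that of most of their peaks in both lists together. The gene list, role lists and summaries were chosen with earlier results of these data known. Every member with a peak was named; for genes with many peaks only the outer bounds or leading intervals are printed, chosen after their values were seen. Some genes of the pathway and marker lists are not reported here. Joins were checked on simulated data. Python 3.11.15, pandas 2.3.3, numpy 2.4.6, scipy 1.17.1 and matplotlib 3.10.9 were used. Alternatives were the FDR (0.01), the fold (4), a common p-value limit, any overlap, the gene's strand, joined peaks, 1 peak per gene and 100 genes of like length.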

Additional observations from a re-analysis of the deposited data

How the results depend on the processing

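Of 54 alternatives to 12 results, 45 left counts within 1.5 times of those reported or other values within their interval, and 9 did not. With the largest PC3 p-value applied to both lists, LNCaP had 10 members with a peak and 20 member peaks, a median fold of 9.39 and 85.0% of peaks in the last part of the span. At that limit 8 members had peaks in both lines, a count without a computed share over all protein-coding genes. With 1 peak per gene, that of smallest p-value, the LNCaP median fold was 7.32, and 55% of LNCaP and 87.5% of PC3 peaks lay in the last part. With at least 50% of both peaks shared, 15 PC3 member peaks overlapped a LNCaP peak. Among like-length genes taken only from those with a peak in either list, 87.9% had a LNCaP and 28.8% a PC3 peak, a set in which a peak is required by construction. The matching member counts are 20 and 16 of the 24 members with a peak in either line, not of all 44. The alternative restricted to the gene's strand was added for fold and position after seeing the data and moved neither. No paired analysis was possible because the lists carry no value per replicate, and for the same reason no replicate could be left out. Depth and expression levels were not used here, so no limit could be set for genes without a peak.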
